A study of Saccharomyces cerevisiae with 7 samples.

Results

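The data are lariat counts of 38 introns in 38 genes of large ribosomal subunit proteins of Saccharomyces cerevisiae, out of 280 annotated introns in the table. The members were taken by locus: RPL6, RPL13, RPL14, RPL17, RPL19, RPL20, RPL23, RPL26, RPL27, RPL31, RPL33, RPL34, RPL35, RPL36, RPL37 and RPL43, which each have an A and a B gene and make up 16 of 17 pairs, and the single genes RPL25, RPL29, RPL32 and RPL39. The 20 other introns of large subunit genes (RPL2, RPL7, RPL16, RPL21, RPL22, RPL24, RPL28, RPL30, RPL40 and RPL42), 45 introns of small subunit genes (RPS) and 176 introns outside ribosomal protein genes serve for comparison.

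The mutant strains carried prp8-V1860N, prp8-V1860D, prp8-N1869D or prp8-V1870N, each a substitution in the RNaseH domain of the spliceosome protein Prp8, and were set against PRP8-WT. Every strain, PRP8-WT included, was mat a, lacked the chromosomal PRP8 gene (prp8D::LYS2) and carried its PRP8 allele on the plasmid pRS313. All strains also lacked DBR1 (dbr1::Kan), the gene of the debranching enzyme, and were grown in rich medium. Before sequencing, ribosomal RNA was removed and RNase R, an exonuclease that spares rings, was applied. Each strain had 1 library. For prp8-N1869D another biological sample was sequenced in 2 technical libraries, whose sum counts here as 1 sample, called the second. Each of these counts is therefore a value of 1 sample, and only prp8-N1869D has a spread between samples.

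In splicing, the spliceosome first joins the 5' end of the intron to an adenosine near its 3' end, the branch point, which closes the intron into a lariat. Dbr1 normally opens the lariat, so a strain without it keeps excised introns as stable rings. In budding yeast few genes have an intron, and ribosomal protein genes are prominent among them and give a large part of all spliced transcripts. Prp8 sits at the catalytic core of the spliceosome, and its RNaseH domain takes part in the changes of shape between the catalytic steps. Many large subunit proteins are made from a pair of genes, A and B, whose proteins are nearly the same while the introns have diverged. The counted reads cross the junction of 5' splice site and branch point, 1 per lariat ring, so counts of different introns are compared without scaling for length.

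The member introns are close to uniform at both reactive sites. In build R64, 32 of 38 introns opened with GTATGT, against 217 of 280 (77.5%) in the whole table, and 37 of 38 had TACTAAC at the branch point, against 230 of 280 (82.1%). The 6 introns that opened otherwise were RPL27A, RPL27B and RPL29 with GTACGT, RPL43A with GTATGA, RPL43B with GTATGC and RPL20A with GTGAGT. The branch point of RPL19A was in AACTAAC. The sequences below, from RefSeq's R64 reference, are shown because these sites differ between genes of a pair or belong to the introns that moved most. For 5' splice sites, capitals mark the first 6 bases of the intron, after 8 bases of exon.

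RPL20A 5' splice site: cggaaaaaGTGAGTaaatac
RPL20B 5' splice site: aagaaaaaGTATGTaataga
RPL43A 5' splice site: acaaaaatGTATGAtatatt
RPL43B 5' splice site: aaaaaaatGTATGCatataa
RPL29 5' splice site: gttagaaaGTACGTtatatt
RPL33A 5' splice site: ccatagatGTATGTtaaaac
RPL33B 5' splice site: ccatagacGTATGTtatgaa

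For branch points, capitals mark the 7-base branch motif, whose sixth base is the branched adenosine.

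RPL19A branch point: cgataatAACTAACatgact
RPL19B branch point: gcaacttTACTAACatcaat
RPL33A branch point: cattaaaTACTAACattttg
RPL33B branch point: acaacctTACTAACagcttt

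RPL29 (YFR032C-A), on chromosome VI with its 5' splice site at 223771 on the minus strand, and RPL32 (YBL092W), on chromosome II at 45645 on the plus strand, have their introns in the 5' UTR per the table's labels. RPL33B (YOR234C) lies on chromosome XV (779386, minus strand) and RPL33A (YPL143W) on chromosome XVI (282141, plus strand). RPL20A (YMR242C) lies on chromosome XIII (754219, minus) and RPL20B (YOR312C) on chromosome XV (901193, minus). RPL19A (YBR084C-A) and RPL19B (YBL027W) both lie on chromosome II, at 415259 on the minus strand and 168425 on the plus strand. RPL43A (YPR043W) lies on chromosome XVI (654168, plus) and RPL43B (YJR094W-A) on chromosome X (608307, plus). All other positions given here are also of build R64, counted from 1.

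The rings of ribosomal protein introns were long by their medians. From 5' splice site to branch point the members measured 209 nt (RPL36B) to 530 nt (RPL27A), with a median of 370.5 nt, against 368.5 nt for the other large subunit introns, 367 nt for the RPS introns and 64 nt for introns outside ribosomal protein genes. The distance from branch point to 3' splice site was 14 to 55 nt, with a median of 36 nt over the 36 members with an annotated 3' end. In none of the 17 pairs did the A ring share a run of 20 bases with the B ring, so reads from the loops of the 2 genes could be told apart at that length.

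The 7 libraries held 652680 to 3517283 lariat reads, of which 524023 to 3042633 matched annotated introns and 92648 to 698649 the member introns. In 38 of 38 members the annotated count was the same as the total of its pairs of sites. A read was counted for the annotated branch point when it fell within 2 nt of it. Over all libraries a median of 37.2% of a member's reads fell on the annotated base itself, and in most members the larger part fell 1 nt upstream. RPL37A and RPL37B departed from this the most. They had 79.5% and 89.8% of reads on the annotated base and 1.5% each 1 nt upstream, whereas RPL33A had 17.2% and 81.9%. RPL6A, RPL20B, RPL36B and RPL31A, the last with 51.2% and 39.6%, were also among the members with more reads on the annotated base.

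Levels differed widely between members within every library. RPL29, a small non-essential protein of the subunit, had the most reads in all, followed by RPL36B, RPL6A, RPL25 and RPL27B. RPL23A, RPL26A and RPL34B were among those with the fewest.

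**Figure D1:**
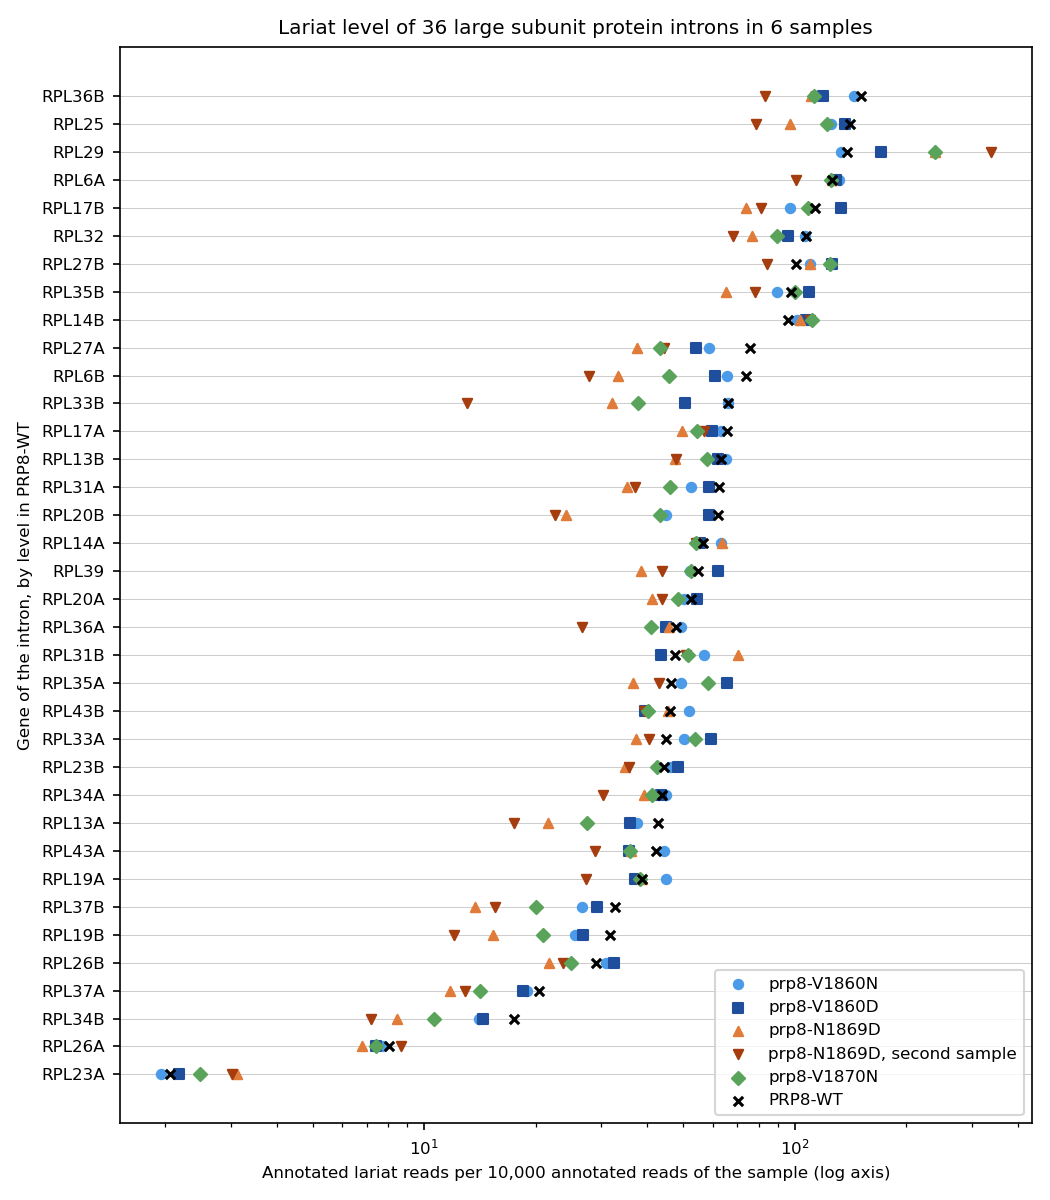
Annotated lariat reads per 10,000 annotated reads of the sample (log axis) for 36 of the introns, ordered by PRP8-WT, with 1 point per biological sample. RPL29 lies to the right of its PRP8-WT value of 138 in 4 of the 5 mutant samples, reaching 337, and RPL33B falls to 13.0 in the second prp8-N1869D sample.

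The first comparison asked how much of all annotated lariat signal the large subunit introns made up. In prp8-N1869D the members held 19.0% of annotated reads in the first and 18.4% in the second sample, against 23.0% in PRP8-WT. The folds were 0.826 and 0.803, and the technical libraries of the second sample gave 19.1% and 17.7%. In prp8-V1860N they held 22.3%, in prp8-V1860D 22.9% and in prp8-V1870N 21.5%, or 0.970, 0.999 and 0.938 of PRP8-WT. The gap between the 2 prp8-N1869D samples was smaller than the gap of either to PRP8-WT, and the difference of the other mutants has no replicate check. The other large subunit introns had folds of 0.969 and 0.807 for the samples of prp8-N1869D, so the first sample fell less there than among the members. Their prp8-V1870N fold was 0.845 and their prp8-V1860D fold 0.889, both lower than those of the members. With prp8-V1860N it was 0.976. RPS introns had folds of 0.884 and 0.832 in the prp8-N1869D samples, and introns outside ribosomal protein genes 1.25 and 1.38. These are shares of 1 total, so one group's gain is another's loss.

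RPL29 went against most other members. It had 134 reads per 10,000 annotated reads in prp8-V1860N, 171 in prp8-V1860D, 238 and 337 for the pair of prp8-N1869D samples, 239 in prp8-V1870N and 138 in PRP8-WT. It was the member with the most reads in 4 of the 5 mutant samples, whereas RPL36B was in prp8-V1860N and PRP8-WT. Without RPL29, an alternative added after the values were seen, the members' fold was 0.768 and 0.698 for the samples of prp8-N1869D and 0.887 for prp8-V1870N.

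The second comparison asked which single introns changed in share. A change of 2-fold or more was counted where both libraries together had at least 50 reads, which held for all 38 members. In prp8-V1860N, prp8-V1860D and prp8-V1870N no member passed 2-fold in either direction. Over all introns measured, 0.391% passed upward and 0.0% downward in prp8-V1860N, 0.781% and 0.0% in prp8-V1860D, and 10% and 0.772% in prp8-V1870N. In the first prp8-N1869D sample 1 member was above 2-fold, against 26.1% of all introns, and 7 were below, or 7 of 38, against 6.61% of all introns. In the second sample 1 member was above, RPL29, against 31.4% of all introns, and 7 were below, against 10.5%. Among RPS introns 4 of 44 were below in the first sample and 9 of 44 in the second. Among the other large subunit introns 0 of 20 were below in the first sample and 3 of 20 in the second. The members' counts depended on the scaling. In the first sample 10 members were below under both TMM and DESeq2 size factors. In the second 11 were below under TMM and 12 under DESeq2 size factors. The 6 members below in both samples were RPL6B, RPL19B, RPL20B, RPL33B, RPL34B and RPL37B. RPL27A was below in the first sample alone and RPL13A in the second alone, with log2 ratios in the other sample of -0.77 and -0.99.

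Of these 8 introns, 6 belong to the B gene of a pair, where 17 of the 38 members are B genes. RPL13A and RPL27A belong to A genes. RPL33B, whose protein is a small component of the large subunit, had 66.1 reads per 10,000 annotated reads in prp8-V1860N, 50.6 in prp8-V1860D, 32.1 and 13.0 for the pair of prp8-N1869D samples, 37.8 in prp8-V1870N and 66.0 in PRP8-WT. Its log2 ratios to PRP8-WT were 0.00, -0.38, -1.04, -2.34 and -0.81. Both prp8-N1869D samples and prp8-V1870N lay well below PRP8-WT, and the pair of prp8-N1869D samples was itself more than 2-fold apart. The other 4 introns with the lowest median ratios were more alike in both prp8-N1869D samples. RPL6B had 65.7, 60.8, 33.4 and 27.9, 45.7 and, in PRP8-WT, 73.9 reads per 10,000 in the same order. RPL37B, a zinc-binding protein gene, had 26.7, 29.3, 13.7 and 15.5, 20.04 and, in PRP8-WT, 32.8. RPL34B and RPL27A likewise had their lowest value in a prp8-N1869D sample. RPL34B had 14.1, 14.4, 8.44 and 7.20, 10.6 and, in PRP8-WT, 17.4. RPL27A had 58.8, 54.2, 37.5 and 44.4, 43.3 and, in PRP8-WT, 75.6. In these 4 introns all 5 mutant samples lay below PRP8-WT, with the prp8-N1869D samples and prp8-V1870N lowest.

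At the other end, RPL23A, RPL33A and RPL14B were with RPL29 among the 5 introns with the highest median ratios. RPL23A, the less read gene of a pair whose protein lies at the interface of the subunits, had 1.95 reads per 10,000 in prp8-V1860N, 2.18 in prp8-V1860D, 3.13 and 3.03 for the pair of prp8-N1869D samples, 2.48 in prp8-V1870N and 2.06 in PRP8-WT. RPL14B had 101, 107, 103 and 110, 111 and, in PRP8-WT, 96.0 reads per 10,000 in the same order. RPL33A had 50.1, 59.3, 37.2 and 40.5, 53.7 and, in PRP8-WT, 45.0, so that it lay below PRP8-WT in prp8-N1869D and above it in the others. RPL25, which binds ribosomal RNA near the exit of the peptide tunnel, had 125, 137, 97.1 and 78.3, 122 and, in PRP8-WT, 141. RPL36B had 145, 119, 111 and 83.1, 112 and, in PRP8-WT, 151. RPL6A lay between 101 and 132 in all mutant samples and at 126 in PRP8-WT, and RPL27B between 83.9 and 126, with 101 in PRP8-WT.

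**Figure D2:**
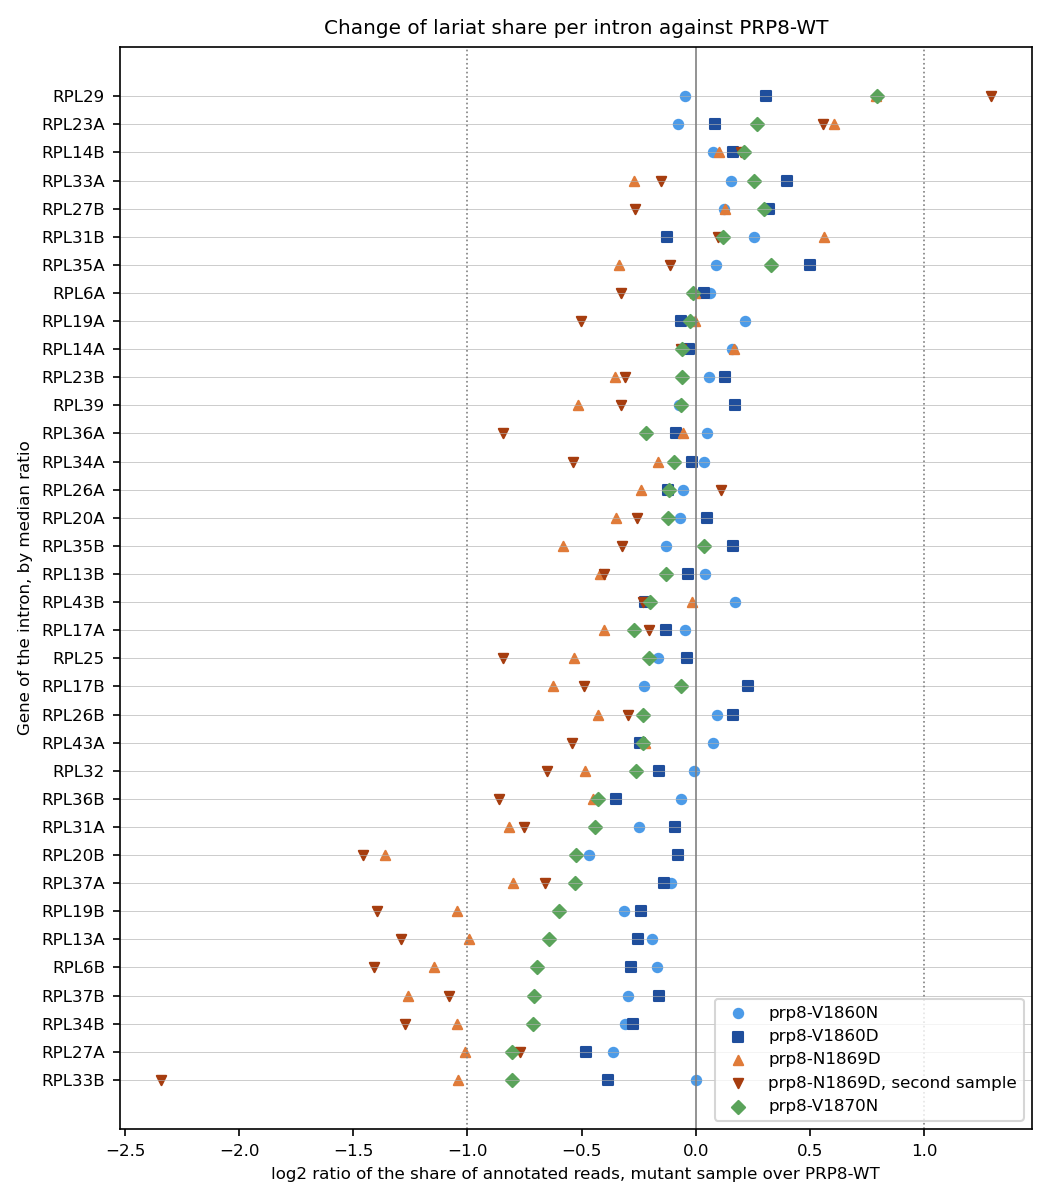
log2 ratio of the share of annotated reads of 36 introns, mutant sample over PRP8-WT, ordered by the median of 5 mutant samples, with dotted lines at 2-fold. The prp8-V1860N and prp8-V1860D points stay inside the dotted lines, and the prp8-N1869D points reach -2.34 for RPL33B and 1.29 for RPL29.

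The members' median log2 ratio equalled -0.05 in prp8-V1860N, -0.07 in prp8-V1860D, -0.38 and -0.37 for the pair of prp8-N1869D samples and -0.13 in prp8-V1870N, beside 0.07, 0.01, 0.27, 0.21 and 0.13 over all introns with enough reads. Scaling by edgeR's TMM factors in place of annotated totals moved the members' median by -0.25 and -0.23 for the samples of prp8-N1869D and by -0.13 in prp8-V1870N. Among the members the ratio had little relation with ring length: Pearson's r between ring length and log2 ratio was -0.08 to 0.08 over 38 members. Over all introns it was -0.31 to -0.68, with rho of -0.39 to -0.75. These describe introns of shared libraries and carry no test.

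For prp8-N1869D, 2 samples could be tested against the single PRP8-WT library with edgeR's quasi-likelihood test, fitted over all introns in 6 samples with 1 residual degree of freedom. The lone PRP8-WT library is assumed there to vary like the prp8-N1869D samples. The fit's prior degrees of freedom were infinite (median over introns), so SE and p rest on variance pooled across introns. They do not reflect the spread between an intron's own 2 samples, which for RPL33B was more than 2-fold. At an adjusted p of 0.05 or less, 10 of 38 members fell and 0 rose, while 12.8% of the 266 introns tested fell and 26.3% rose. At an unadjusted p under 0.05, 13 members were lower and 0 higher, against 17.7% and 30.1% of the introns tested. DESeq2 called 14 members lower and 0 higher, against 15.0% and 15.7% of 280 introns. RPL33B fell by 1.76 on the log2 scale (SE 0.36, adjusted p = 6.3e-05, edgeR), RPL20B by 1.61 (SE 0.36, adjusted p = 0.00025, edgeR) and RPL6B by 1.48 (SE 0.36, adjusted p = 0.00061, edgeR). RPL19B, RPL34B, RPL37B and RPL13A fell by 1.34 to 1.42, RPL27A by 1.09, RPL31A by 0.99 and RPL37A by 0.93. Without technical library 2 of the second sample RPL33B, RPL31A and RPL37A were no longer called, with edgeR adjusted p-values of 0.0574, 0.0669 and 0.0583, and 7 members remained. RPL29 had a log2 fold change of 0.86 with an adjusted p of 0.123 (edgeR). The median log2 fold change was -0.57 over the members and 0.10 over all introns tested. It was -0.40 over the other large subunit introns, -0.57 over the RPS introns and 0.74 over introns outside ribosomal protein genes. Of the RPS introns 10 of 45 fell and 2 rose, and of the introns outside ribosomal protein genes 11 of 162 fell and 67 rose.

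The third comparison set the A gene against the B gene of each pair, which removes whatever acts on both introns alike. In all 7 libraries A gave more reads in 3 pairs (RPL6, RPL19 and RPL34) and B in 11 pairs. RPL20, RPL31 and RPL33 changed side between libraries. The share of the A gene differed between the technical libraries by a median of 1.31 percentage points over the 17 pairs and at most 14.1, and between the 2 prp8-N1869D samples by a median of 2.89 and at most 21.97. The largest technical gap was in RPL27, at 28.6% and 42.7%.

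The odds of A over B changed by 2-fold or more in 0 of 17 pairs in prp8-V1860N and in prp8-V1860D, against 0.0% of 45 ribosomal protein pairs in each. For prp8-N1869D it changed in 6 and 3 of 17 in the first and second sample, against 26.7% and 24.4% of the 45, and in prp8-V1870N in 2 of 17, against 8.89%. RPL6 and RPL20 did so in both prp8-N1869D samples. RPL19, RPL27 and RPL31 were among the pairs that did so in the first sample alone, RPL33 in the second sample and in prp8-V1870N, and RPL27 also in prp8-V1870N.

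In the RPL33 pair the A gene held 43.1% of the reads of the pair in prp8-V1860N, 53.9% in prp8-V1860D, 53.7% and 75.7% for the pair of prp8-N1869D samples, 58.7% in prp8-V1870N and 40.5% in PRP8-WT. Every mutant sample was above PRP8-WT, and in 4 of 5 the larger share went to A. In the RPL6 pair it held 66.7%, 68.1%, 79.0% and 78.3%, 73.3% and, in PRP8-WT, 63.1%. In RPL34 it held 76.2%, 75.1%, 82.3% and 80.8%, 79.5% and, in PRP8-WT, 71.6%. In RPL19, whose protein bridges to the small subunit, it held 63.9%, 58.0%, 71.6% and 69.5%, 64.5% and, in PRP8-WT, 55.0%. In these 4 pairs the A share was higher than in PRP8-WT in 5 of 5 mutant samples, and RPL6, RPL19 and RPL34 were close for the pair of prp8-N1869D samples.

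RPL27 and RPL31 went the other way. In RPL27 the A gene held 34.9% in prp8-V1860N, 30.1% in prp8-V1860D, 25.4% and 34.6% for the pair of prp8-N1869D samples, 25.9% in prp8-V1870N and 42.9% in PRP8-WT. All 5 were below PRP8-WT, though in the second prp8-N1869D sample 1 technical library reached 42.7%. In RPL31, whose protein lies at the tunnel exit, it was 48.0%, 57.3%, 33.5% and 42.1%, 47.1% and, in PRP8-WT, 56.7%, so prp8-V1860D did not share the lower value. RPL23 was among the most uneven pairs, with 4.43% from the A gene in PRP8-WT, and its A share was 8.27% and 7.81% for the pair of prp8-N1869D samples.

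**Figure D3:**
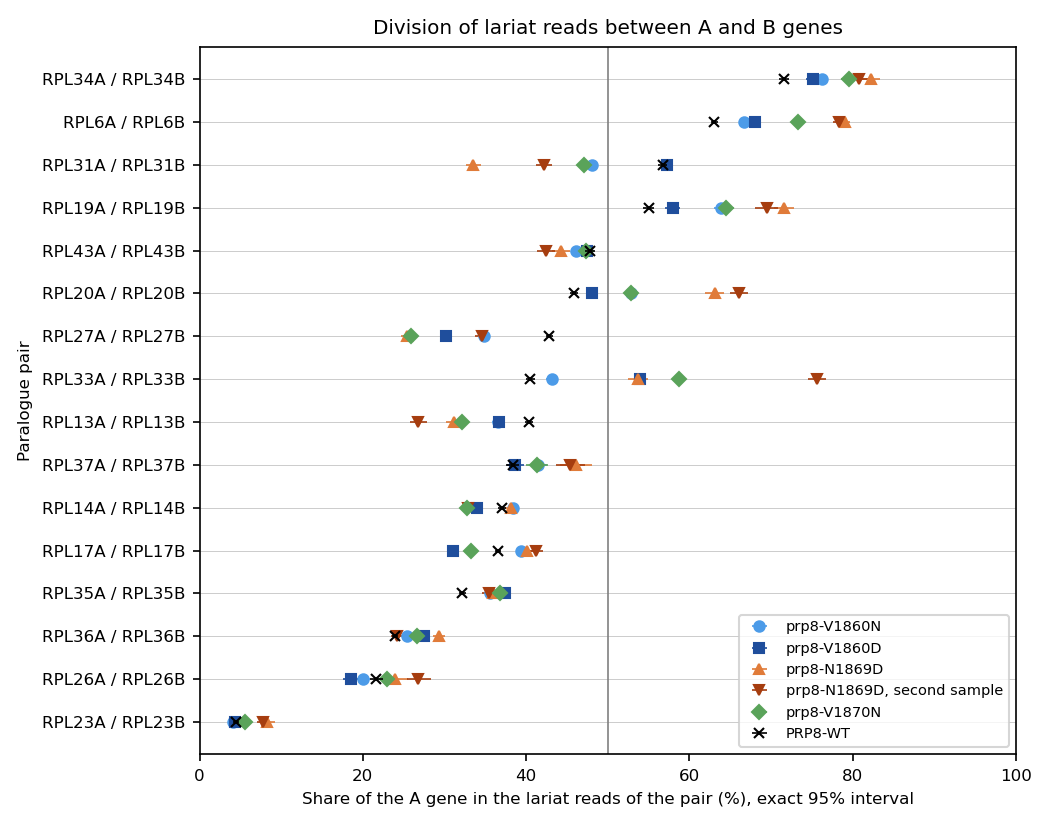
Share of the A gene in the lariat reads of 16 pairs (percent), 1 point per biological sample with its exact binomial 95% interval of counting error. The RPL33 points spread the most, between 40.5% in PRP8-WT and 75.7% in the second prp8-N1869D sample, and the RPL27 mutant points all lie left of PRP8-WT.

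The lengths of the 2 rings of a pair had little relation with the direction. Between the difference in ring length, A minus B, and the log2 odds ratio, Pearson's r was -0.06 to -0.19 over 17 pairs, as a description. The pair with the largest difference in length, RPL36 with 433 nt and 209 nt, had A shares of 24.2% to 29.3% in the mutants and 24.0% in PRP8-WT.

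The fourth comparison concerned rings closed from a 5' splice site other than the annotated one, more than 5 and less than 1000 nt away, onto the annotated branch point. Over all libraries the members had 2161 such reads at 207 sites, 150 inside the intron with 78.1% of the reads and 57 upstream of it. Of the sites, 142 opened with GT, and these held 93.4% of the reads. The most read site of each of the 8 introns with the most such reads is shown, with capitals on the first 6 bases of the ring.

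RPL37B aberrant site, 256 nt inside the intron: acaaaaagGTGAGAagaaat
RPL6B aberrant site, 943 nt upstream: tccgaatgGTATACtctttt
RPL20B aberrant site, 19 nt inside: aatgtattGTATGCttgtgg
RPL33B aberrant site, 134 nt inside: attaaagaGTATGAatatat
RPL19B aberrant site, 176 nt inside: tcaagcttGTACGAattgcc
RPL26B aberrant site, 325 nt inside: gaagaaaaGTAGGAagttac
RPL36A aberrant site, 364 nt inside: acaaagccGTACATtatacg
RPL27B aberrant site, 123 nt inside: acatgattGTATTGtcattg

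None of these 8 sites opens with GTATGT. The RPL6B site, at 1027926 on the plus strand of chromosome XII, lies between the genes VMA6 and RPL6B, and the other 7 lie inside the gene they are named for.

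As a share of aberrant plus annotated reads, the members' aberrant reads made up 0.0918% in prp8-V1860N, 0.0639% in prp8-V1860D, 0.111% and 0.119% for the pair of prp8-N1869D samples, 0.124% in prp8-V1870N and 0.0895% in PRP8-WT. The folds were 1.03, 0.713, 1.24, 1.32 and 1.39. Over all introns the shares were 0.395%, 0.329%, 0.451%, 0.474%, 0.446% and, in PRP8-WT, 0.419%. The members lay well below that level in each sample. The other large subunit introns raised it, with 6053 of the 12805 reads in PRP8-WT and a share of 1.70%. RPS introns had 0.270% there and introns outside ribosomal protein genes 0.348%, both also above the members. In the prp8-N1869D samples the RPS folds were 1.82 and 2.20, larger than the members' folds. The other large subunit introns had folds of 0.772 and 0.932, and introns outside ribosomal protein genes shares of 0.349% and 0.322%. The members' prp8-V1870N fold rested on RPL6B: without it, an alternative added after the values were seen, the fold was 1.06, and with sites inside the intron alone 1.02. With those inside sites the prp8-V1860D fold was 0.581.

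Intron by intron, 24 members had at least 20 aberrant reads. The exact binomial 95% interval lay above that of PRP8-WT in 2 of 24 in prp8-V1860N, where 7.21% of 111 introns did so, in 0 in prp8-V1860D (4.5%), in 3 and 5 for the samples of prp8-N1869D (11.7% and 17.1%) and in 4 in prp8-V1870N (12.6%). It lay below in 0 (9.91%), 3 (18.0%), 0 and 1 (3.60% and 9.01%) and 0 (4.5%) in the same order. The members above PRP8-WT in both prp8-N1869D samples were RPL19B, RPL37B and RPL6B. For RPL19B the second sample rested on technical library 2, at 2.21%, while technical library 1 gave 0.528% from 4 reads, close to PRP8-WT at 0.536%. For RPL6B technical library 1 gave 0.116% from 2 reads, with an interval that overlapped that of PRP8-WT.

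RPL37B had an aberrant share of 0.535% in prp8-V1860N, 0.406% in prp8-V1860D, 1.02% and 2.51% for the pair of prp8-N1869D samples, 1.43% in prp8-V1870N and 0.409% in PRP8-WT. These are 28, 22, 14, 44, 45 and 41 reads. Most came from the site 256 nt inside the intron, with 23, 16, 8, 24, 35 and, in PRP8-WT, 31 reads. The annotated reads of RPL37B, which are in the denominator, fell in prp8-N1869D. Per 1,000,000 annotated reads of the sample, RPL37B gave 14.4, 11.9, 14.1 and 39.8, 29.0 and, in PRP8-WT, 13.5 aberrant reads. On that scale the second prp8-N1869D sample and prp8-V1870N lay above PRP8-WT and the first prp8-N1869D sample was close to it.

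RPL33B had shares of 0.263%, 0.235%, 0.716% and 1.17%, 0.611% and, in PRP8-WT, 0.431%. Per 1,000,000 annotated reads of the sample it gave 17.4, 11.9, 23.2 and 15.4, 23.2 and, in PRP8-WT, 28.6 aberrant reads, so all mutant samples lay below PRP8-WT on that scale. RPL19B had shares of 1.25%, 0.463%, 1.30% and 1.26%, 0.794% and, in PRP8-WT, 0.536%, and per 1,000,000 annotated reads 32.3, 12.5, 20.1 and 15.4, 16.8 and, in PRP8-WT, 17.1. Its prp8-V1860N value was higher on both scales. RPL36A had 6.67, 5.43, 14.1 and 19.0, 16.8 and, in PRP8-WT, 5.26 aberrant reads per 1,000,000, so that both prp8-N1869D samples and prp8-V1870N were higher on both scales. Its shares were 0.135%, 0.121%, 0.306% and 0.710%, 0.408% and, in PRP8-WT, 0.110%, and the interval of the first prp8-N1869D sample overlapped that of PRP8-WT.

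RPL6B was read at the distant upstream site in 5 reads in prp8-V1860N, 9 in prp8-V1860D, 12 and 7 for the pair of prp8-N1869D samples, 95 in prp8-V1870N and 3 in PRP8-WT. The prp8-V1870N count stands apart from all others. RPL25 had a second site of this kind, 847 nt upstream in the space between YGK3 and RPL25, with 9 reads in prp8-V1870N, 1 in prp8-V1860D and 0 in the other samples, among them PRP8-WT with its deepest library. RPL20B, RPL26B and RPL27B had shares whose intervals overlapped that of PRP8-WT in every sample. RPL20B had 0.331%, 0.258%, 0.622% and 0.558%, 0.462% and, in PRP8-WT, 0.375%. RPL26B had 0.428%, 0.365%, 0.417% and 0.456%, 0.569% and, in PRP8-WT, 0.494%. RPL27B had 0.172%, 0.108%, 0.128% and 0.129%, 0.0623% and, in PRP8-WT, 0.0847%. In RPL43A the technical libraries themselves stood apart, with 0 and 9 aberrant reads and intervals that did not overlap.

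The fifth comparison concerned rings closed from the annotated 5' splice site onto another branch position, more than 2 nt from the annotated one. The members had 10184 such reads at 1608 positions, 95.1% of the reads inside the intron and 139 reads beyond the annotated 3' splice site. Positions 3 or 4 nt upstream of the annotated branch point held 24.3% of the reads, and positions over 10 nt away 65.2%. Of all reads 53.3% ended on an A. The most read position of each of the 8 introns with the most such reads is shown. A second group of RPL26B, and RPL20B and RPL31B, were added after their values were seen. Capitals are on the 7 bases placed as the branch motif is, the read position being the sixth.

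RPL26B, 187 nt upstream: tgtgtatTGCTGACataaat
RPL26B, 381 nt upstream: gaaaaaaTGTTAACataaaa
RPL13B, 321 nt upstream: acgactgAACTAATgcctaa
RPL6A, 340 nt upstream: ggagatgTCAATTTacattc
RPL17B, 26 nt upstream: ttattttTTCTTACactacg
RPL36B, 16 nt upstream: tacgtgaGTACTAGtgtgct
RPL31B, 24 nt downstream: tgaattgATATTAAtatagc
RPL20B, 9 nt upstream: ttgaaatATGCAAGtttact
RPL35B, 3 nt upstream: caggaacTTTTACTaacagt
RPL14B, 3 nt upstream: tatttcaATTTACTaacaac
RPL27B, 3 nt upstream: tagaaaaATTTACTaacaaa

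The RPL26B positions are at 556091 and 555897 on the plus strand of chromosome VII, and the RPL13B position at 551144 and the RPL6A position at 124117 on the minus strand of chromosome XIII, all inside the intron. In RPL6A the read position is a T, and in RPL35B, RPL14B and RPL27B it is a C within the annotated motif TACTAAC. Which base was branched was not tested at any of these positions.

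As a share of alternative plus annotated reads, the members' alternative branch reads made up 0.438% in prp8-V1860N, 0.383% in prp8-V1860D, 0.509% and 0.460% for the pair of prp8-N1869D samples, 0.482% in prp8-V1870N and 0.445% in PRP8-WT. The folds were 0.982, 0.860, 1.14, 1.03 and 1.08. The members lay well below all introns in every sample, where the shares were 1.48%, 1.48%, 1.87%, 2.31%, 1.80% and, in PRP8-WT, 1.45%. RPS introns and the other large subunit introns were also low, with 0.581% and 0.601% in PRP8-WT, against 3.30% outside ribosomal protein genes. A low share was thus not particular to the members. Within the second prp8-N1869D sample the technical libraries gave 0.431% and 0.496%, a spread that reaches from below PRP8-WT to near the first sample.

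Among the 37 members with at least 20 such reads the interval lay above that of PRP8-WT in 0 in prp8-V1860N (1.05% of 191 introns), 1 in prp8-V1860D (2.62%), 5 and 5 for the samples of prp8-N1869D (7.85% and 11%) and 1 in prp8-V1870N (8.90%). It lay below in 1 (2.09%), 3 (7.33%), 0 and 2 (2.62% and 5.76%) and 0 (3.14%). RPL20B was above PRP8-WT in 4 of the 5 mutant samples. RPL20B had 0.637% in prp8-V1860N, 0.689% in prp8-V1860D, 1.24% and 1.11% for the pair of prp8-N1869D samples, 0.875% in prp8-V1870N and 0.391% in PRP8-WT. Per 1,000,000 annotated reads of the sample the same reads of RPL20B came to 28.7, 40.7, 30.2 and 25.3, 38.1 and, in PRP8-WT, 24.3, a smaller difference, and its annotated reads were fewer in prp8-N1869D. RPL6A and RPL34B were above PRP8-WT in both prp8-N1869D samples. RPL34B had 0.904%, 1.27%, 1.99% and 2.93%, 1.497% and, in PRP8-WT, 0.731%. Per 1,000,000 annotated reads of the sample RPL34B gave 12.8, 18.5, 17.1 and 21.7, 16.1 and, in PRP8-WT, 12.8, again a smaller difference beside fewer annotated reads in prp8-N1869D.

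RPL26B, whose protein lies near the tunnel exit, held 1627 of the members' alternative branch reads, more than any other. It had 5.37% in prp8-V1860N, 3.44% in prp8-V1860D, 6.61% and 5.73% for the pair of prp8-N1869D samples, 5.78% in prp8-V1870N and 5.58% in PRP8-WT. Of the 5, prp8-V1860D alone had an interval apart from that of PRP8-WT. RPL13B came next with 0.673%, 0.463%, 2.04% and 1.40%, 1.17% and, in PRP8-WT, 1.07%, so that prp8-V1860N and prp8-V1860D were below and the first prp8-N1869D sample above. RPL6A had 0.287%, 0.242%, 0.526% and 0.492%, 0.339% and, in PRP8-WT, 0.223%. RPL36B had 0.322%, 0.341%, 0.372% and 0.766%, 0.411% and, in PRP8-WT, 0.280%, with the second prp8-N1869D sample apart from the first. RPL35B had 0.473% to 0.525% in the mutants and 0.714% in PRP8-WT. RPL17B had 0.386% to 0.719% in the mutants and 0.464% in PRP8-WT, RPL14B 0.246% to 0.468% and 0.335%, and RPL27B 0.172% to 0.316% and 0.351%.

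**Figure D4:**
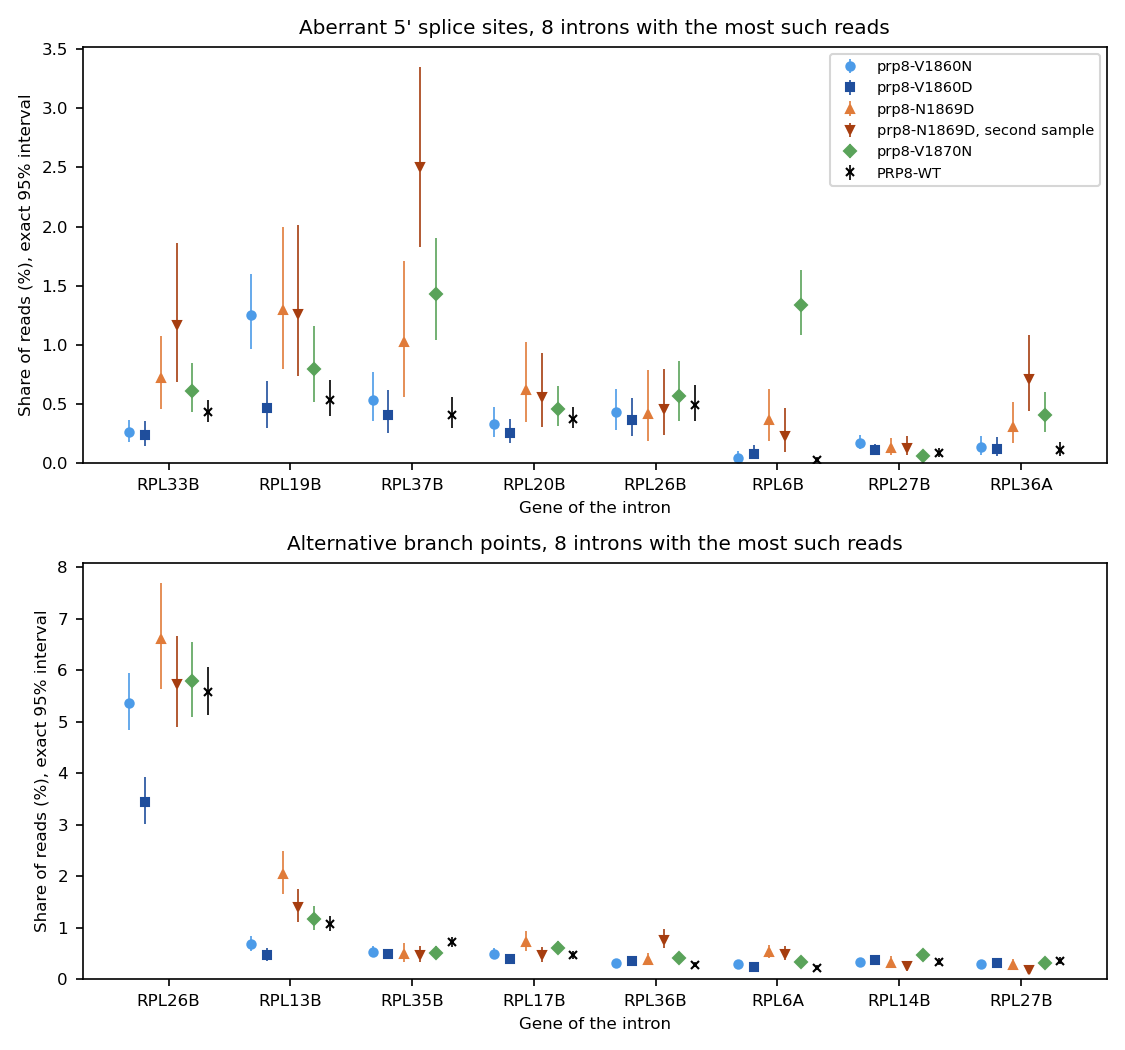
Share of aberrant 5' splice site reads (top) and of alternative branch reads (bottom) for the 8 introns with the most such reads, in percent with exact binomial 95% intervals, 1 point per biological sample with PRP8-WT last. RPL6B stands out in prp8-V1870N at 1.34%, RPL37B reaches 2.51% in the second prp8-N1869D sample, and RPL26B has alternative branch shares of 3.44% to 6.61%.

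Within 3 of these introns the positions fell in tight groups. In RPL26B, positions 190 to 185 nt upstream of the annotated branch point held 808 reads in rings of 257 to 262 nt and positions 384 to 379 nt upstream 386 reads in rings of 63 to 68 nt. In RPL13B, positions 323 to 319 nt upstream held 493 of its 626 reads in rings of 57 to 61 nt. In RPL6A, positions 343 to 338 nt upstream held 301 of 405 reads in rings of 37 to 42 nt. These groups were drawn after the values were seen.

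**Figure D5:**
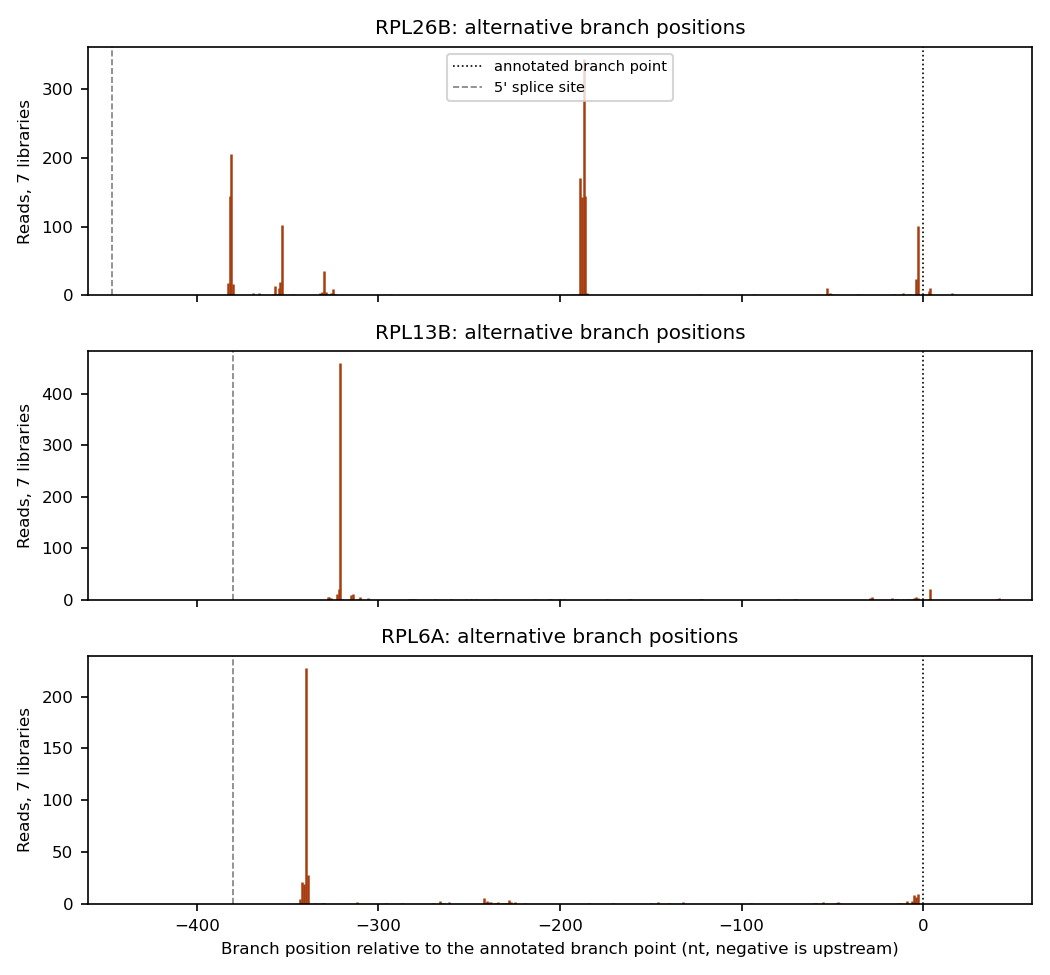
Alternative branch reads of RPL26B, RPL13B and RPL6A summed over 7 libraries, by distance from the annotated branch point (nt, negative is upstream). The dotted line marks the annotated branch point and the dashed line the 5' splice site, and the tallest line of each intron stands 187, 321 and 340 nt upstream of the branch point.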

How the data were processed

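The authors deposited whole-number counts of filtered reads across the lariat junction, listed for each combination of sites and for each annotated intron. Trimmomatic, Bowtie2 and build R64 are named per the submitters' processing notes, with versions and strand assignment not given in the sources used here. Members and lists were chosen with earlier results of these data known. The deposited aberrant counts equalled those recomputed from the pair table in 38 of 38 members for 5 strains. The 65 columns with single aberrant sites or with rates of introns that are no members were not used.

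Shares of annotated reads were compared on the log2 scale after adding 0.5 reads. Intervals are exact (Clopper-Pearson) 95% intervals and cover counting error only. Named introns followed a rule: the 5 with the most and the 5 with the fewest reads, the 5 highest and 5 lowest median ratios, the 6 pairs with the largest median change in odds, and the 8 with the most aberrant and the most alternative branch reads. A pair of genes counted in the totals is not reported here on its own. RPL20A, RPL20B, RPL19A, RPL43A, RPL43B and others outside that rule were named after their values were seen.

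Counts of prp8-N1869D and PRP8-WT were tested with edgeR 4.0.16 (quasi-likelihood, TMM, filterByExpr, Benjamini-Hochberg over all introns), with DESeq2 1.42.0 as an alternative, in R 4.3.3. Python 3.11.15 (scipy 1.17.1, pandas 2.3.3, numpy 2.4.6) did the rest. The fit was tested on data simulated with 1 dispersion for all introns and samples. Such data cannot check the assumption that PRP8-WT varies like prp8-N1869D. In them the test called 50% of true 2-fold falls and 50% of true 2-fold rises, and 0.952% of unchanged introns.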

Additional observations from a re-analysis of the deposited data

How the results depend on the processing

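The members' share of reads depended on the denominator. With reads outside ribosomal protein genes as denominator the folds were 0.9499 in prp8-V1860N, 0.947 in prp8-V1860D, 0.661 and 0.583 for the samples of prp8-N1869D and 0.801 for prp8-V1870N. With all lariat reads they were 0.978 in prp8-V1860D, 0.775 and 0.751 in prp8-N1869D and 0.870 in prp8-V1870N. Without the 3 members with the most reads they were 0.756 and 0.703 in prp8-N1869D and 0.892 in prp8-V1870N, and without RPL29 0.768, 0.698 and 0.887. Leaving out each technical library gave the second prp8-N1869D sample 0.770 to 0.833. Under TMM factors the members above 2-fold were 0 in the first prp8-N1869D sample, and those below were 11 in the second. Under DESeq2 size factors 0 were above in both samples and 12 below in the second. A minimum of 200 reads also left 0 above in the first. On the annotated branch base alone 1 pair passed 2-fold odds in prp8-V1870N. The edgeR count of fallen members was 7 to 9 without a technical library, 10 with no filter or the 3 samples alone, and 12 with RLE factors. RPL33B, RPL31A and RPL37A lost their call without technical library 2, and RPL37A also without technical library 1. The aberrant fold was 0.581 in prp8-V1860D and 1.02 in prp8-V1870N with sites inside the intron alone, and 1.06 in prp8-V1870N without RPL6B. The alternative branch fold was 0.939 in prp8-V1860D without RPL26B and RPL13B, 1.25 and 1.18 in prp8-N1869D beyond 10 nt, 1.19 in the second prp8-N1869D sample on branch base A alone and 1.11 there without technical library 1. The causes of these shifts were not tested. No called value changed direction in 171 alternatives. Of 783 alternatives to values that were not called, 48 lay on the other side of no change, among them 4 summed folds. For aberrant reads in prp8-V1860N the fold was 0.992 with sites inside the intron alone and 0.996 without the 2 introns with the most such reads. For alternative branch reads it was 1.02 in prp8-V1860N beyond 10 nt and 0.967 in the second prp8-N1869D sample without technical library 2. No paired analysis was possible because the groups share fewer than 2 replicate numbers. Depth limits the aberrant counts most, with 626 reads over all members in PRP8-WT and 209 in the first prp8-N1869D sample.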

Other observations

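Relative to annotated member reads, short alternative rings of the large subunit introns were more frequent in prp8-N1869D than in PRP8-WT. The grouping by ring length was made after the values were seen. Alternative branch reads more than 10 nt upstream of the annotated branch point were divided by the length of the ring they closed. Rings under 100 nt came to 792 reads per 1,000,000 annotated member reads in prp8-V1860N, 535 in prp8-V1860D, 1444 and 1319 for the pair of prp8-N1869D samples, 974 in prp8-V1870N and 820 in PRP8-WT. The folds over PRP8-WT were 0.966, 0.652, 1.76 (95% interval 1.52 to 2.03), 1.61 (1.39 to 1.86) and 1.19 (1.04 to 1.36), and the technical libraries gave 1.39 and 1.87. Rings of 200 nt or more had folds of 0.989, 0.803, 0.954, 0.904 and 0.989, and rings of 100 nt or more but under 200 nt 1.09, 0.876, 1.06, 0.958 and 0.933. On this scale the 2 prp8-N1869D samples lay above PRP8-WT for the short rings and within counting error of it for the longer ones. The scale divides by annotated member reads, whose share of all annotated reads was itself 0.826 and 0.803 of PRP8-WT. Per annotated read of the sample the prp8-N1869D folds would be lower at every ring length. Rings of 200 nt or more would then lie below PRP8-WT. Annotated introns also differed by ring length. Over all introns, Pearson's r between ring length and log2 ratio was -0.68 and -0.65 for the samples of prp8-N1869D. Introns outside ribosomal protein genes, with a median ring of 64 nt, had folds of 1.25 and 1.38 per annotated read of the sample. Higher levels of short rings were thus not particular to alternative branch reads, and whether these differences are related was not tested.

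Most short-ring reads came from RPL13B (549), RPL26B (544) and RPL6A (308). Without these 3 introns the folds for rings under 100 nt were 1.27 (0.953 to 1.70) and 1.34 (1.01 to 1.76) for the samples of prp8-N1869D, so the size of the difference rests on them. Within RPL26B, the rings of 63 to 68 nt made up 2.09% and 2.38% of its reads for the samples of prp8-N1869D against 1.04% in PRP8-WT, while those of 257 to 262 nt made up 2.96% and 1.77% against 3.05%. In RPL6A the rings of 37 to 42 nt made up 0.414% and 0.439% for the samples of prp8-N1869D and 0.135% in PRP8-WT. In RPL13B those of 57 to 61 nt made up 1.79% and 1.06% against 0.842%. Both genes are annotated on the minus strand of chromosome XIII.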
